A study of Saccharomyces cerevisiae and Kluyveromyces lactis with 95 samples.

Results

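The data described here are part of a deletion series in *Saccharomyces cerevisiae*, read under PKA inhibition in cells that lacked the transcription factors Rph1 and Gis1. The comparison was between 4 cultures of an analog-sensitive strain that lacked Rph1/Gis1 and also Msn2/4, and 4 cultures that lacked only Rph1/Gis1, all of them treated with the PKA inhibitor 1-NM-PP1. The 8 cultures were chosen by their sample titles, and they were read in 9 of the 95 libraries of the series because 1 culture without Rph1/Gis1 had a repeat library, whose counts were summed with the first. A further repeat of that group was marked by the authors as dropped and was left out.

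All strains here carried analog-sensitive versions of the PKA catalytic subunits (PKA-AS), which the compound 1-NM-PP1 blocks, in the W303 laboratory background. Cultures growing exponentially in rich glucose medium (YPD) received 3 uM 1-NM-PP1 or the solvent DMSO for 50 min. PolyA RNA was then read from its 3′ end, and each library gave a count of reads per gene. The strain without Rph1/Gis1 is called ΔRph1/Gis1 below, and the strain without all 4 factors ΔRph1/Gis1 ΔMsn2/4. *MSN2* and *MSN4* were removed with CRISPR, coding sequence and a stretch of promoter together. How *RPH1* and *GIS1* were deleted is not given in the sources used here, nor is whether each strain was 1 clone. The DMSO cultures of the same strains, the inhibited cultures with Rph1/Gis1 intact, and the same deletions with wild-type PKA (PKA-WT) serve below only to place the main comparison.

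PKA is the kinase through which yeast cells read abundant glucose. While it is active, the zinc finger factors Msn2 and Msn4 are kept out of the nucleus, and when it is shut off they enter and bind the stress response element (STRE) in the promoters of genes for stress protection, storage carbohydrates and respiration. Rph1 and Gis1 are a pair of related zinc finger proteins downstream of the kinase Rim15, which PKA also restrains. Gis1 was first described through a second element, the post-diauxic shift element (PDS), and can also bind STRE. Genes for ribosomal proteins and for the building of ribosomes behave the other way and are turned down when PKA activity is lost. Removing Msn2/4 from cells that already lack Rph1/Gis1 therefore asks what the inhibited state still holds when neither pair is there.

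The 9 libraries held 752844 to 3535912 counts on genes, with a median of 2312526, and 82.3% to 85.1% of their reads fell on genes. Levels are given as counts scaled to library size after TMM normalization (CPM), and differences as the log2 fold change (LFC) of ΔRph1/Gis1 ΔMsn2/4 against ΔRph1/Gis1, fitted with edgeR over all 56 *S. cerevisiae* cultures. A gene was called at an adjusted p under 0.01 and an absolute LFC above 1. The TMM factor ran from 0.99 to 1.10 in the inhibited ΔRph1/Gis1 cultures and from 1.23 to 1.34 in the inhibited ΔRph1/Gis1 ΔMsn2/4 cultures, so the make-up of the libraries differed between the groups. A library shows each gene against the rest, so a change in RNA per cell cannot be told apart from a change of the other genes.

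Among the deleted genes, *MSN2* was called lower. It had 6.22, 4.11, 3.86 and 11.9 CPM in the 4 inhibited ΔRph1/Gis1 cultures and 0.644, 0.437, 0.245 and 0.701 CPM in the 4 without Msn2/4, an LFC of -3.48 (SE 0.66, adjusted p = 4.63e-05). *MSN4* had 33.8, 65.5, 24.6 and 20.4 CPM against 14.8, 5.24, 13.2 and 6.31 CPM. Its groups did not overlap, and its LFC of -1.85 (SE 0.62) did not pass the test at an adjusted p of 0.0203. *GIS1*, absent by label from both strains, still had 5.94 to 8.43 CPM and 3.00 to 6.38 CPM. *RPH1* was listed at 0 in every library, also in strains with the gene intact, and so checks no label. It was 1 of 284 annotated genes listed at 0 throughout, a set that also held *HXK1*, *GLK1* and *TSA1*, and none of them could be measured here.

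Loss of Msn2/4 lowered 467 genes and raised 503 of the 5779 tested in inhibited cells without Rph1/Gis1, which is 8.08% lower and 8.7% higher. Of these, 228 were lower and 153 higher by an LFC beyond 2. The 4 cultures of one strain lay entirely below those of the other for 463 of the 467 genes called lower, and entirely above for 496 of the 503 called higher. Among all 5779 genes tested, 1112 lay entirely below and 1224 entirely above, many more than were called. The median LFC of all genes tested was 0.01. The lower side reached much farther from 0 than the higher side, to -9.71 against 4.81 among the genes named below, and the lowest 15 genes together held 5.58% to 8.16% of the normalized counts in ΔRph1/Gis1 cultures and 0.0247% to 0.0338% in ΔRph1/Gis1 ΔMsn2/4 cultures.

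The lowest of all was *HSP12*, which codes for a small membrane-associated stress protein and is a standard reporter of Msn2/4. Its level was 30713, 30582, 22609 and 15722 CPM in the inhibited ΔRph1/Gis1 cultures and 16.5, 15.3, 39.2 and 47.7 CPM without Msn2/4, an LFC of -9.71 (SE 1.16, adjusted p = 5.9e-09). The lowest culture with Msn2/4 was thus still far above the highest culture without. *DDR2*, another small stress protein, had 5811, 7693, 2279 and 2415 CPM against 12.9, 7.42, 15.9 and 13.0 CPM (LFC -8.51, SE 0.93). *CTT1*, the cytosolic catalase, had 3998, 5332, 4428 and 5312 CPM against 15, 22.3, 22.6 and 30.2 CPM (LFC -7.73, SE 0.56). For both genes every culture without Msn2/4 was far below every culture with it, and the spread among the ΔRph1/Gis1 cultures was larger for *DDR2*, where cultures 1 and 2 were above cultures 3 and 4.

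STREs were dense in the promoters of these genes. The promoters of 4 of the lowest 15 genes are shown because they are rich in STREs: *HSP12* and *EGO4* held the most, and *DDR2* and *CTT1* had the lowest LFC of the 4 genes that came next with equal numbers. Each stretch is the 300 bases that begin 400 bases before the start codon, on the gene's strand, with each STRE (CCCCT, or AGGGG on the other strand) in capitals. *HSP12* lies on the plus strand and its stretch is chrVI:106856-107155 of the R64 genome. The stretch of *EGO4*, a paralog of the EGO complex gene *EGO2*, is chrXIV:692161-692460 on the plus strand, that of *DDR2* is chrXV:231856-232155 on the minus strand, and that of *CTT1* is chrVII:654234-654533 on the plus strand. All are RefSeq sequence, and each stretch held 3 STREs of the 7, 5, 4 and 4 found in the 700 bases before the start codon of *HSP12*, *EGO4*, *DDR2* and *CTT1*.
HSP12: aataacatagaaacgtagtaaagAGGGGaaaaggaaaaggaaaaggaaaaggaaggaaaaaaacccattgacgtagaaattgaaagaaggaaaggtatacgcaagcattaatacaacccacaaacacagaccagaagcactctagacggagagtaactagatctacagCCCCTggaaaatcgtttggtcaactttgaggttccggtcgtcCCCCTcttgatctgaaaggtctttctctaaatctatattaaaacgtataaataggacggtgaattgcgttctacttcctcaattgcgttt
EGO4: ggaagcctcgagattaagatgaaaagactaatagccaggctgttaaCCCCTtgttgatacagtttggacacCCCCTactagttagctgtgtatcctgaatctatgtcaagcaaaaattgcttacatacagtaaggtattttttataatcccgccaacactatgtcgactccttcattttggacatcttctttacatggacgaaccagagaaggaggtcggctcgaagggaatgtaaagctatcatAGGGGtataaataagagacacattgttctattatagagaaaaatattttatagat
DDR2: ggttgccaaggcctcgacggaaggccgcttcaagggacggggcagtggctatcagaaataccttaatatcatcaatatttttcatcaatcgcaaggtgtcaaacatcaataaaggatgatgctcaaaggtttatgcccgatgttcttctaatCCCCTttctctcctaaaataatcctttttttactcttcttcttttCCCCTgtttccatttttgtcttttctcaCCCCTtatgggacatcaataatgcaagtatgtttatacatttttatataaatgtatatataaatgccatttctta
CTT1: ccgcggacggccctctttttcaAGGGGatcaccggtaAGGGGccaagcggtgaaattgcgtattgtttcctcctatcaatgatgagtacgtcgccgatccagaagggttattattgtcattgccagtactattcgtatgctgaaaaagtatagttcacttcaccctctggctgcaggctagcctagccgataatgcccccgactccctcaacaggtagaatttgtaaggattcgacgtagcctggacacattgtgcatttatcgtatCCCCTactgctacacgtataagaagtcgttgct

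None of these 4 stretches held a PDS (TAAGGGAT or TTAGGGAT on either strand). In *DDR2* all 3 STREs read CCCCT, whereas the others mixed both orientations, and in *CTT1* a pair of AGGGG elements was followed by a single CCCCT closer to the gene. Of the 15 lowest genes, 14 held an STRE in their 700 bases, and *SPG4* held none. *ALD3* had 2 PDS and *MSC1* 1, the only ones among the 15. Among the 10 highest genes, *TIR3* alone had an STRE, and *HTB2* and *PHO12* had 1 PDS each. A match is only a stretch of letters, and nothing was measured here about binding.

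Across all genes the same description held in shares. An STRE was present in 75.8% of the 438 promoters of genes called lower, in 34.1% of the 499 promoters of genes called higher, and in 45% of the 5489 promoters of all genes tested, counting 700 bases before the start codon. A PDS was present in 7.99% of the promoters of lower genes, 2.61% of those of higher genes and 3.64% of all. The share of genes called lower was 3.51% among the 3019 genes with no STRE, 9.33% among the 1737 with 1, 18.0% among the 556 with 2, 36.0% among the 125 with 3, 45.2% among the 31 with 4 and 52.4% among the 21 with 5 or more. The share of genes called higher moved less, from 10.9% with none to 4.00% with 3, and the bins of 4 and 5 or more held only 2 higher genes each.

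**Figure D1:**
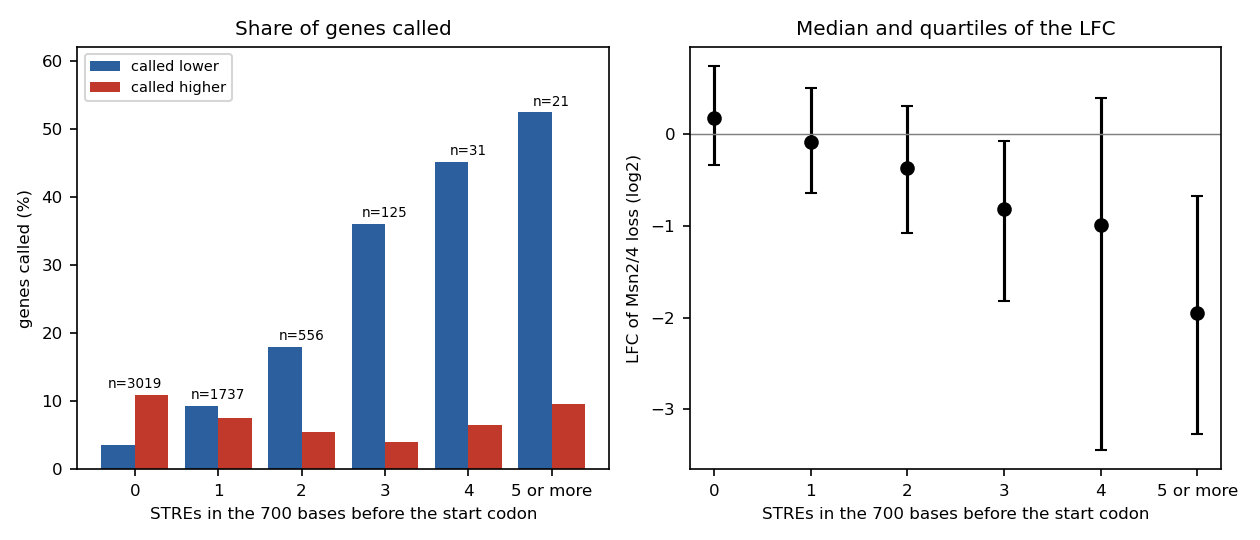
Left, percent of genes called lower (blue) and higher (red) by the number of STREs in the 700 bases before the start codon, with the number of genes above each pair of bars. Right, the median LFC of Msn2/4 loss (log2) with its quartiles in the same bins, which goes from 0.17 with no STRE to -1.95 with 5 or more.

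Counted together, the elements divided the genes into 4 kinds. Of the 2910 genes with neither element, 3.27% were lower. Of the 109 genes with a PDS and no STRE, 11 were lower (10.1%). Both strains lacked Rph1 and Gis1 by label, and what acts at a PDS in these cells was not tested. Of the 2379 with an STRE and no PDS, 12.9% were lower, and of the 91 with both, 24 were lower (26.4%). These are shares with no test.

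The remaining genes at the bottom of the range came from several branches of stress metabolism. *ALD3*, a cytosolic aldehyde dehydrogenase, was among the most abundant messages of inhibited ΔRph1/Gis1 cells, at 17188, 19279, 24839 and 16794 CPM, and had 42.9, 58.1, 62.8 and 68.7 CPM without Msn2/4 (LFC -8.39, SE 0.66). *SPG4*, a gene needed for survival in stationary phase, had 295, 387, 204 and 152 CPM against 0.215, 0, 0.981 and 1.05 CPM (LFC -8.68, SE 0.60). *TSA2*, a peroxiredoxin, had 1198, 1556, 1623 and 1929 CPM against 12.0, 24.5, 15.2 and 21.7 CPM (LFC -6.43, SE 0.38). No overlap between the groups was a condition for naming these 3 genes, and none of their cultures was near the other group. *RTN2*, a reticulon of the endoplasmic reticulum, had 598 to 1362 CPM against 3.49 to 5.36 CPM (LFC -7.72, SE 0.51), and *RTC3*, a small protein that is also abundant in stressed cells, had 6191 to 9409.8 CPM against 48.3 to 59.6 CPM (LFC -7.04, SE 0.58). *SOL4*, a 6-phosphogluconolactonase, *MSC1*, *EGO4* and the hydrophilin *SIP18* fell by 6.81, 6.36, 6.29 and 6.14 on the log2 scale. *COX26*, a small protein of cytochrome c oxidase, and *YNL194C*, a Sur7-family membrane protein, fell by 6.21 and 6.31 from low levels of 58.2 to 106 CPM and 7.64 to 49.1 CPM.

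*TKL2*, the minor transketolase, had 30.7, 34.1, 46.7 and 27.2 CPM in ΔRph1/Gis1 cultures and no count in any of the 4 without Msn2/4. Against a floor of 3 counts over that group it was at least 160.3-fold lower. The open reading frame *YBR116C*, which overlaps *TKL2* and is absent from the RefSeq annotation, took far more reads, 1561 to 2617.5 CPM against 11.8 to 33.6 CPM (LFC -6.49, SE 0.90). It was looked at after its values were seen, and reads of the pair cannot be told apart where they overlap.

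**Figure D2:**
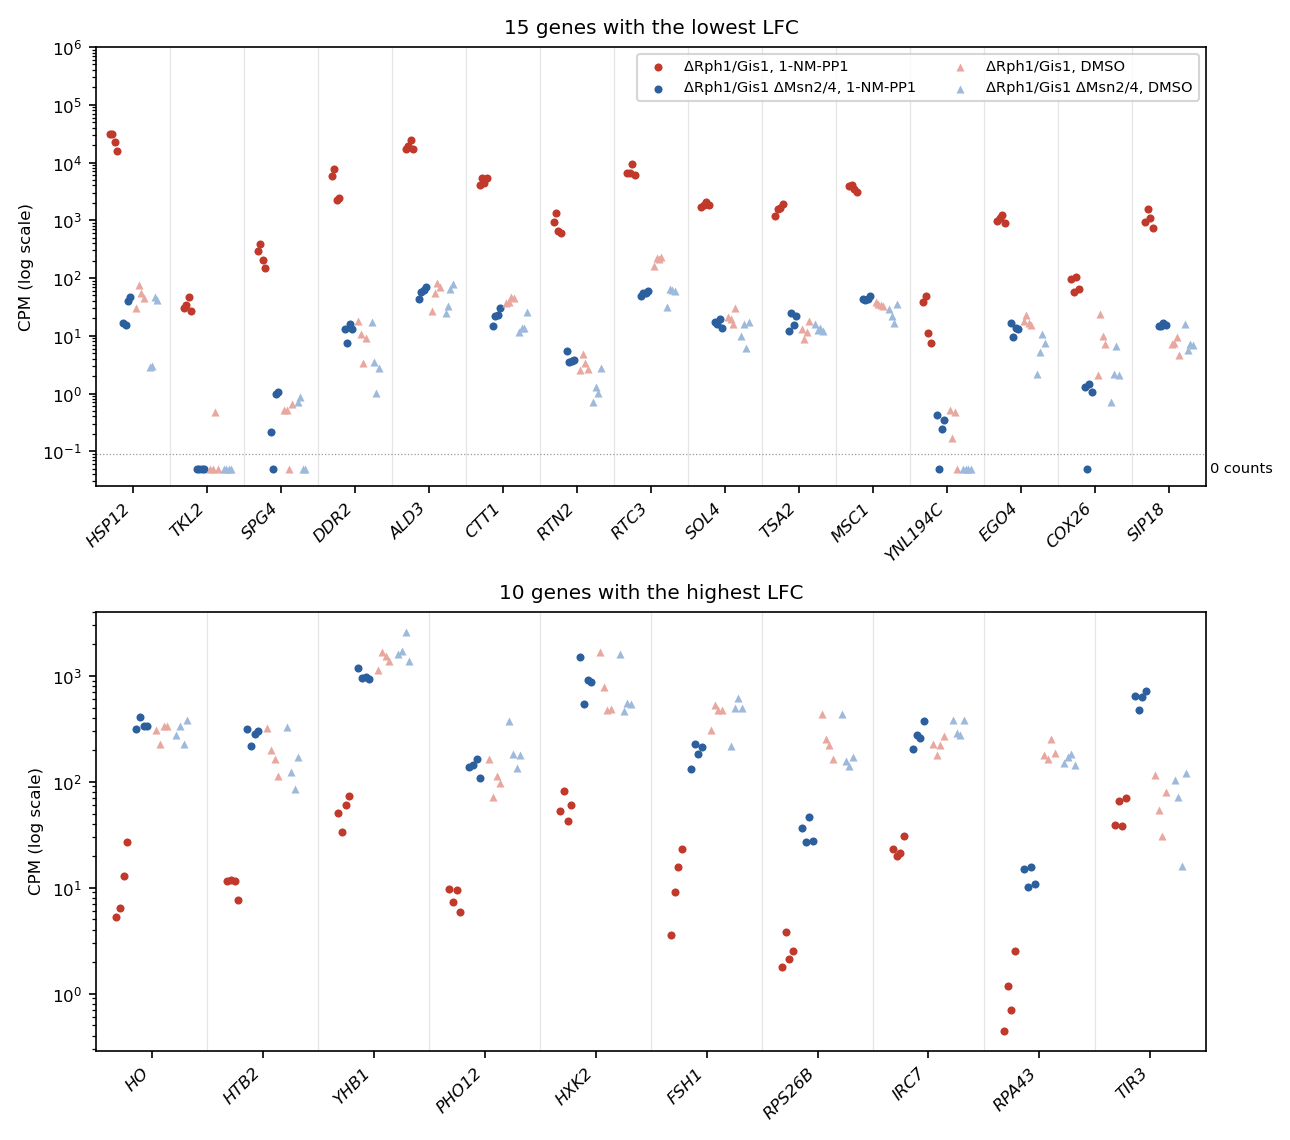
CPM on a log axis in each culture, for the 15 genes with the lowest LFC (top) and the 10 with the highest (bottom), with red for ΔRph1/Gis1, blue for ΔRph1/Gis1 ΔMsn2/4, circles for 1-NM-PP1 and pale triangles for DMSO. Points below the dotted line had 0 counts. Only genes whose inhibited groups do not overlap were eligible, so the red and blue circles are apart by that choice.

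By function, the small stress proteins fell the most. The counts by list, here and below, stand next to 8.08% lower and 8.7% higher among all genes tested. Of 14 tested members of a list of hydrophilins and small stress proteins, 12 fell and none rose, with a median LFC of -6.01. *HSP26*, a small heat shock chaperone, had 3732, 3184, 2987 and 2258 CPM against 70.4, 32.8, 34.8 and 34.4 CPM (LFC -6.14, SE 0.52), with culture 1 the highest in both groups. *STF2*, which acts on the mitochondrial ATPase and protects dried cells, had 3549, 3213, 3252 and 2343 CPM against 48.3, 45, 48.1 and 49.4 CPM (LFC -6.02, SE 0.32).

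The large chaperones were more mixed, with 7 of 26 lower, none higher and a median LFC of -0.94. The count was 4 without culture 1 or culture 3 of the ΔRph1/Gis1 ΔMsn2/4 group, and 12 in a fit of the 8 cultures alone. *SSA4*, the stress-induced Hsp70, had 2997, 4867, 3996 and 3619 CPM against 114, 252, 183 and 244 CPM (LFC -4.29, SE 0.37). *HSP104*, the disaggregase, had 277, 332, 462 and 434 CPM against 27.2, 46.3, 48.1 and 57.9 CPM (LFC -3.07, SE 0.54). The membrane protein *HSP30* fell by 5.09, *HSP31* by 4.21 and *SSE2* by 3.04, while *SSA1*, *SSA2* and the Hsp90 gene *HSC82* were not called (LFCs of -2.80, 1.14 and 0.02). Of 29 antioxidant enzymes 13 fell and none rose, led by *CTT1* and *TSA2*, followed among others by the glutathione peroxidase *GPX1* (LFC -3.84), the mitochondrial thioredoxin *TRX3* (LFC -3.33) and the peroxisomal catalase *CTA1* (LFC -3.17).

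Storage carbohydrate genes fell as a group. Trehalose is made by the complex of Tps1, Tps2, Tps3 and Tsl1 and broken down by Nth1, Nth2 and Ath1, and 6 of these 7 genes fell, with a median LFC of -3.02. *TSL1* had 431, 590.03, 239.8 and 154 CPM against 6.65, 3.93, 5.89 and 6.31 CPM (LFC -5.93, SE 0.56). *TPS1*, the synthase itself, had 664, 1239, 545 and 472 CPM against 80.7, 60.3, 102 and 70.8 CPM (LFC -3.21, SE 0.44). Both the enzymes of synthesis and the trehalases *NTH1* (LFC -3.02) and *NTH2* (LFC -1.21) were lower.

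Glycogen genes showed the same. Of 15 tested, 11 fell and 1 rose, with a median LFC of -2.63. *GPH1*, glycogen phosphorylase, had 1185, 1217, 1338 and 1605 CPM against 13.5, 26.2, 20.8 and 28.1 CPM (LFC -5.92, SE 0.58). *PGM2*, the main phosphoglucomutase, had 1387, 1355, 859 and 882 CPM against 26.6, 21.0, 15.9 and 23.5 CPM (LFC -5.68, SE 0.48). *GSY2*, glycogen synthase, had 808, 846, 733 and 704 CPM against 104, 107, 84.4 and 96.8 CPM (LFC -2.98, SE 0.22). The branching enzyme *GLC3* and the phosphatase subunit *GIP2* fell by 3.52 and 3.53.

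In central carbon metabolism members of one pathway, often isozymes, differed in direction. The higher calls in these lists, 1 of 13, 2 of 21 and 1 of 15, are shares near the 8.7% of all genes. In the pentose phosphate pathway 5 of 13 genes fell and 1 rose. With RLE scaling in place of TMM 0 rose, and 0 to 1 rose when any single culture was left out. *GND2*, the minor 6-phosphogluconate dehydrogenase, had 1931, 2186, 2273 and 2732 CPM against 30.7, 59.4, 36.5 and 54.7 CPM (LFC -5.66, SE 0.56), and the transaldolase *NQM1* fell by 5.57. In glycolysis 4 of 21 fell and 2 rose, with a median LFC of 0.03. *TDH1*, *ENO1* and *GPM2* fell by 2.68, 1.75 and 1.68, while *HXK2*, the main hexokinase of glucose-grown cells, rose from 53.3, 82.0, 42.8 and 60.3 CPM to 1492, 539, 909.6 and 873 CPM (LFC 4.00, SE 0.72). Culture 1 without Msn2/4 was the highest for *HXK2*, which was named among the highest genes on condition that its groups did not overlap. Of 15 hexose transporters and sensors, 2 fell and 1 rose: *HXT7* had 894, 1939.9, 265 and 227 CPM against 71.4, 18.3, 45.1 and 28.8 CPM (LFC -4.33, SE 0.95), and *HXT2* had 108 to 139 CPM against 422 to 565 CPM (LFC 1.97, SE 0.33). *HXT7* and *HXT6* are nearly identical in sequence, so how the authors' counting split their reads is uncertain.

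Among mitochondrial genes, 13 of 52 members of the TCA cycle and respiratory chain fell and 1 rose, with a median LFC of -0.85. When any single culture was left out 9 to 14 fell, and in a fit of the 8 cultures alone 17 fell and 2 rose. The cytochrome c isoforms moved in opposite directions. *CYC7* had 191, 573, 119.7 and 56 CPM against 19.3, 7.86, 30.9 and 13.7 CPM (LFC -3.69, SE 0.66), and *CYC1* had 76.5, 63.8, 61.4 and 88.3 CPM against 269, 212, 259.97 and 247 CPM (LFC 1.77, SE 0.29). The citrate synthases did likewise, the mitochondrial *CIT1* with 79.8 to 129 CPM against 15.3 to 22.1 CPM (LFC -2.45, SE 0.38) and the peroxisomal *CIT2* with 4.89 to 11 CPM against 28.8 to 47.6 CPM (LFC 2.2, SE 0.44). Of 22 genes of gluconeogenesis, the glyoxylate cycle and fatty acid oxidation 5 fell and 1 rose (3 fell without culture 2 of either group, and 9 in a fit of the 8 cultures alone), the lowest being the thiolase *POT1* with 555, 775, 605 and 802 CPM against 7.51, 17.5, 15.5 and 19.6 CPM (LFC -5.52, SE 0.60).

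Such splits were counted over the ohnologs, the gene pairs kept from the ancient whole-genome duplication, whose names were taken from the study's own list. Of 510 pairs with both members tested, 91 had 1 member lower and the other not called, 18 had both lower, 67 had 1 higher and the other not called, 22 had both higher and 16 had 1 lower and the other higher. Single ohnologs were lower in 14.02% of 1020 cases and higher in 12.45%, against 8.08% and 8.7% of all genes. The study had also singled out 110 pairs by their unequal response to PKA inhibition, on cultures of this series. Among these, 71 of the 110 responsive members fell and none rose (median LFC -1.65), while 3 of the 110 other members fell and 13 rose (median LFC 0.14). Since the pairs were chosen for a response to inhibition, the direction of these counts is not independent of that choice.

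Genes of the membrane, the vacuole and signalling were counted in the same way. The 5 lists that follow had 35.3%, 66.7%, 15.15%, 18.2% and 17.65% of members lower, in that order, against 8.08% of all genes. The higher calls among vacuolar genes and transcription factors, 8.33% and 5.88%, were near or below the 8.7% of all genes. Of 17 eisosome and Sur7-family genes 6 fell, among them *NCE102* (LFC -2.77), *LSP1* (LFC -2.53) and *PIL1* (LFC -1.17). Of 12 vacuolar proteases and inhibitors 8 fell and 1 rose, led by the inhibitors *TFS1* (LFC -4.45) and *PAI3* (LFC -3.89). Autophagy genes were mostly not called, with 5 of 33 lower, and 3 without culture 3 of ΔRph1/Gis1 or culture 1 or 4 of ΔRph1/Gis1 ΔMsn2/4, or with upper-quartile scaling. Of 22 tested genes of the PKA pathway and of quiescence signalling 4 fell. *BCY1*, the regulatory subunit that holds PKA inactive, had 675, 687, 666 and 789 CPM against 239.9, 267, 214 and 279.8 CPM (LFC -1.49, SE 0.22). *CYR1*, adenylate cyclase, fell by 1.22 and the kinase *RIM11* by 1.35. Of 34 transcription factors of the diauxic shift and stress 6 fell and 2 rose, with the largest difference at *USV1* (LFC -3.60), another zinc finger factor of stress genes.

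On the higher side, the machinery of ribosome production stood out by its numbers. Of 135 cytoplasmic ribosomal protein genes tested, all 135 had a positive LFC, 61 rose and none fell, with a median LFC of 1.76. The 135 stayed positive, and 56 rose, with the RLE scaling of DESeq2 in place of TMM, 44 to 52 rose when any single culture was left out, and 111 rose in a fit of the 8 cultures alone. *RPS22A* had 29.3, 34.7, 19.0 and 31.4 CPM against 265, 135, 165 and 155 CPM (LFC 2.66, SE 0.61), and *RPS26B* had 1.78 to 3.82 CPM against 27.1 to 46.6 CPM (LFC 3.69, SE 0.86). Their duplicates *RPS22B* and *RPS26A* were listed at 0 throughout, so the assignment of reads between these near-identical copies is uncertain. Of 65 genes of RNA polymerase I and ribosome assembly 37 rose and 1 fell (median LFC 1.55). *RPA43*, a polymerase I subunit, had 0.445 to 2.55 CPM against 10.0 to 15.7 CPM (LFC 3.55, SE 0.31), *UTP13* of the small subunit processome had 1.78, 1.76, 4.91 and 2.55 CPM against 26.8, 21.4, 19.6 and 18.6 CPM (LFC 2.94, SE 0.39), and *NOC2*, a pre-ribosome export factor, had 3.11 to 13.6 CPM against 55.1 to 73.4 CPM (LFC 2.88, SE 0.34). By contrast 69 of 70 mitochondrial ribosomal protein genes had a negative LFC (median LFC -0.47). Only 3 of the 70 were called lower, a share of 4.29%, below the 8.08% of all genes.

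**Figure D3:**
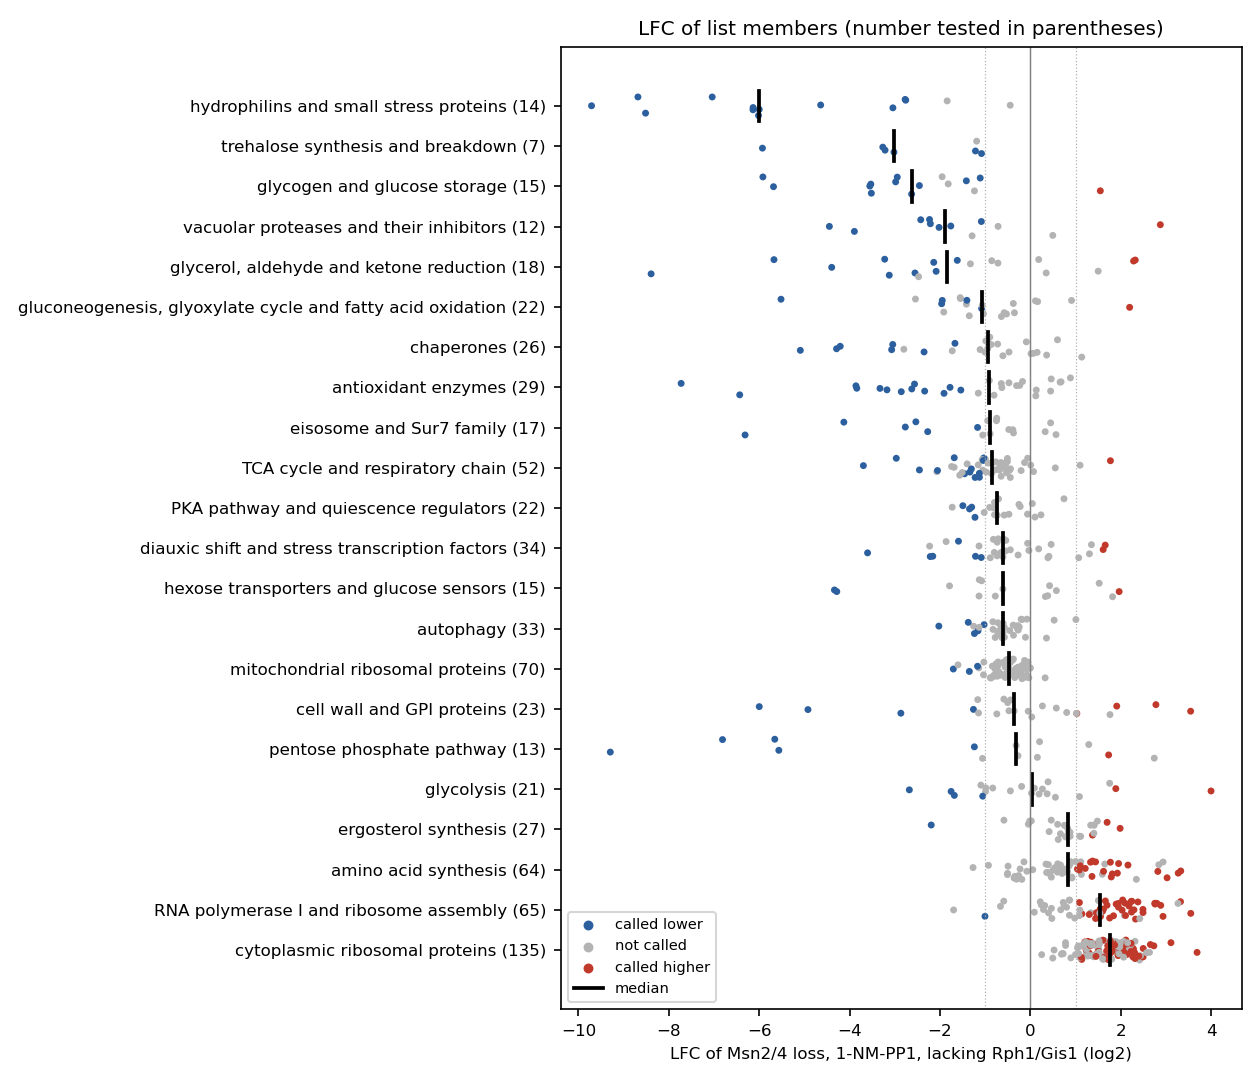
LFC of Msn2/4 loss in inhibited ΔRph1/Gis1 cells (log2) for the tested members of each gene list, blue where called lower, red where called higher and grey where not called, with the median as a black bar and dotted lines at -1 and 1. Small stress proteins lie lowest, with a median of -6.01, and cytoplasmic ribosomal proteins highest, with a median of 1.76.

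Among biosynthetic genes the lists differed. Of 64 amino acid synthesis genes 19 rose and none fell (median LFC 0.84), a share of 29.7% against 8.7% of all genes. *GDH1*, the main glutamate dehydrogenase of ammonium assimilation, had 36.0, 34.1, 20.4 and 56 CPM against 472, 274, 326 and 329.98 CPM (LFC 3.27, SE 0.56). *ASN1*, an asparagine synthetase, had 25.3, 18.5, 33.4 and 39.0 CPM against 148, 179, 287 and 201 CPM (LFC 2.82, SE 0.43). Of 27 ergosterol genes 3 rose, *ERG3*, *ERG6* and *ERG7*, and 1 fell. That share of 11.1% higher is near the 8.7% of all genes, although 10 rose in a fit of the 8 cultures alone.

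The single highest gene was *HO*, the mating type endonuclease, with 5.33, 6.46, 13.0 and 27.2 CPM against 315, 404, 335 and 339 CPM (LFC 4.81, SE 0.33, adjusted p = 9.24e-16). *HTB2*, a histone H2B gene, had 11.6, 11.8, 11.6 and 7.64 CPM against 312, 219, 282 and 299 CPM (LFC 4.68, SE 0.69), and *YHB1*, the nitric oxide-detoxifying flavohemoglobin, had 50.2, 33.2, 60.0 and 73.0 CPM against 1184, 953, 969 and 938 CPM (LFC 4.23, SE 0.44). The DMSO means in ΔRph1/Gis1 were 301 CPM for *HO*, 199 CPM for *HTB2* and 1429 CPM for *YHB1*. In DMSO cultures without Msn2/4, *HO* had 225 to 383 CPM and *HTB2* 85.0 to 328 CPM, which overlap their inhibited levels, while *YHB1* had 1383 to 2599.8 CPM, above all of its inhibited cultures. The acid phosphatase *PHO12*, which has a near-identical copy in *PHO11*, the hydrolase *FSH1*, the cysteine desulfhydrase *IRC7* and the cell wall mannoprotein *TIR3* were also among the 10, at LFCs of 4.06, 3.91, 3.56 and 3.55. Of the 10, *TIR3* alone lay above every DMSO culture of both strains when inhibited without Msn2/4, at 479 to 714 CPM. Its highest DMSO culture had 115 CPM in ΔRph1/Gis1, where the mean was 70.0 CPM, and 120 CPM without Msn2/4.

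Without inhibition few genes were called. In DMSO 2 genes were lower and 0 higher of 5779 tested, which is 0.0346% and 0%, against 128 genes at an unadjusted p under 0.05. DESeq2 called 4 lower and 0 higher, and a fit of the 8 DMSO cultures with a replicate block 6 lower and 1 higher. The 2 genes were *STF2*, with 97.4, 137, 105 and 123 CPM against 33.0, 30.1, 33.0 and 18.5 CPM (LFC -2.01, SE 0.27, adjusted p = 2.24e-05), and the small heat shock protein *HSP42*, with 55.2, 79.5, 68.5 and 59.3 CPM against 18.0, 21.1, 23.2 and 20.5 CPM (LFC -1.66, SE 0.29, adjusted p = 0.0029). When any 1 of 6 of the 8 DMSO cultures was left out, the count was 1 in place of 2. The lowest 15 genes had LFCs from -2.56 to 0.24 in DMSO and none was called. Some of them nevertheless did not overlap between the DMSO groups, such as *RTC3* with 161 to 228 CPM against 31.6 to 65.0 CPM (LFC -1.92, adjusted p = 0.148) and *CTT1* with 37.5 to 46.6 CPM against 11.5 to 25.3 CPM (LFC -1.40, adjusted p = 0.666), so a lack of calls does not show equal levels.

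A test of the difference itself, the LFC under 1-NM-PP1 less that in DMSO, called 194 genes lower (3.36%) and 246 higher (4.26%). The DMSO and 1-NM-PP1 portions of 1 number came from 1 divided culture. With that culture as a block, fitted on the 16 cultures alone, the counts were 357 and 616, and without the block on the same 16 cultures they were 255 and 420. The 15 lowest and 10 highest genes were chosen by their LFC under 1-NM-PP1, which is part of this difference. How many of them passed is thus not independent of that choice. Of the 15 lowest genes 13 passed, for instance *ALD3* at a difference of -8.17 (SE 0.78) and *HSP12* at -8.58 (SE 1.30). *TKL2* and *YNL194C* did not; *TKL2* had 1 count over the 8 DMSO cultures. Of the 10 highest genes 9 passed, and *RPS26B* did so only with the block (adjusted p = 0.0108 without it and 8.07e-05 with it).

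The response to the drug itself was read in both strains. These comparisons share cultures with the main one, and their values are given side by side. In ΔRph1/Gis1, 1002 genes rose (17.3%) and 1064 fell (18.4%) with 1-NM-PP1 against DMSO. In ΔRph1/Gis1 ΔMsn2/4, 304 rose (5.26%) and 619 fell (10.7%). These fits leave out that each drug and DMSO portion came from 1 culture. With the culture as a replicate block, on the 8 cultures of each strain, 1235 rose and 1238 fell in the first strain, and 573 rose and 731 fell in the second. With an LFC beyond 2, 480 genes rose in the first strain and 81 in the second, 67 of them in both, and 695 and 373 fell, 358 of them in both. The median LFC of the 480 genes was 2.93 in ΔRph1/Gis1, which chose them, and 1.32 in ΔRph1/Gis1 ΔMsn2/4. For the 695 it was -3.57 and -2.11.

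By list, the median response of the small stress proteins was 6.25 in ΔRph1/Gis1 and 0.95 without Msn2/4, and that of the trehalose genes 3.35 and 1.53. The ribosomal protein genes had medians of -3.85 and -2.11, with 121 and 76 of 135 lower, and the genes of RNA polymerase I and ribosome assembly -5.15 and -3.37, with 61 and 57 of 65 lower. In cells without all 4 factors ribosomal genes thus still fell with inhibition. *NOC2* was one of them, with 554 to 873 CPM in DMSO and 55.1 to 73.4 CPM under 1-NM-PP1 without Msn2/4, next to 628 to 979.8 CPM and 3.11 to 13.6 CPM with it.

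Some genes were still induced without any of the 4 factors. The proline permease *PUT4*, chosen here after its values were seen for having the highest response in that strain, had 0.515 to 5.03 CPM in DMSO and 135, 62.9, 77.0 and 89.1 CPM under 1-NM-PP1 (LFC 5.27, adjusted p = 4.06e-08). In ΔRph1/Gis1 it had 166 to 291 CPM under 1-NM-PP1, and its LFC of -1.3 for Msn2/4 loss did not pass the test (adjusted p = 0.0559), though it did in fits of the 8 cultures alone. *TMA10*, chosen in the same way, had 43.3 to 53.3 CPM against 0.515 to 2.05 CPM in DMSO, and was nonetheless lower than in ΔRph1/Gis1 (LFC -2.76, SE 0.42). *HXT7*, *RSB1* and *POT1* came next in that order, with LFCs of 4.81, 4.74 and 4.59 to the drug without Msn2/4. *RSB1*, a transporter of sphingoid bases, had 26.3 to 44.0 CPM under 1-NM-PP1 in ΔRph1/Gis1 and 31.9 to 39.3 CPM without Msn2/4, overlapping levels with an LFC of -0.07 (SE 0.25) for Msn2/4 loss.

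**Figure D4:**
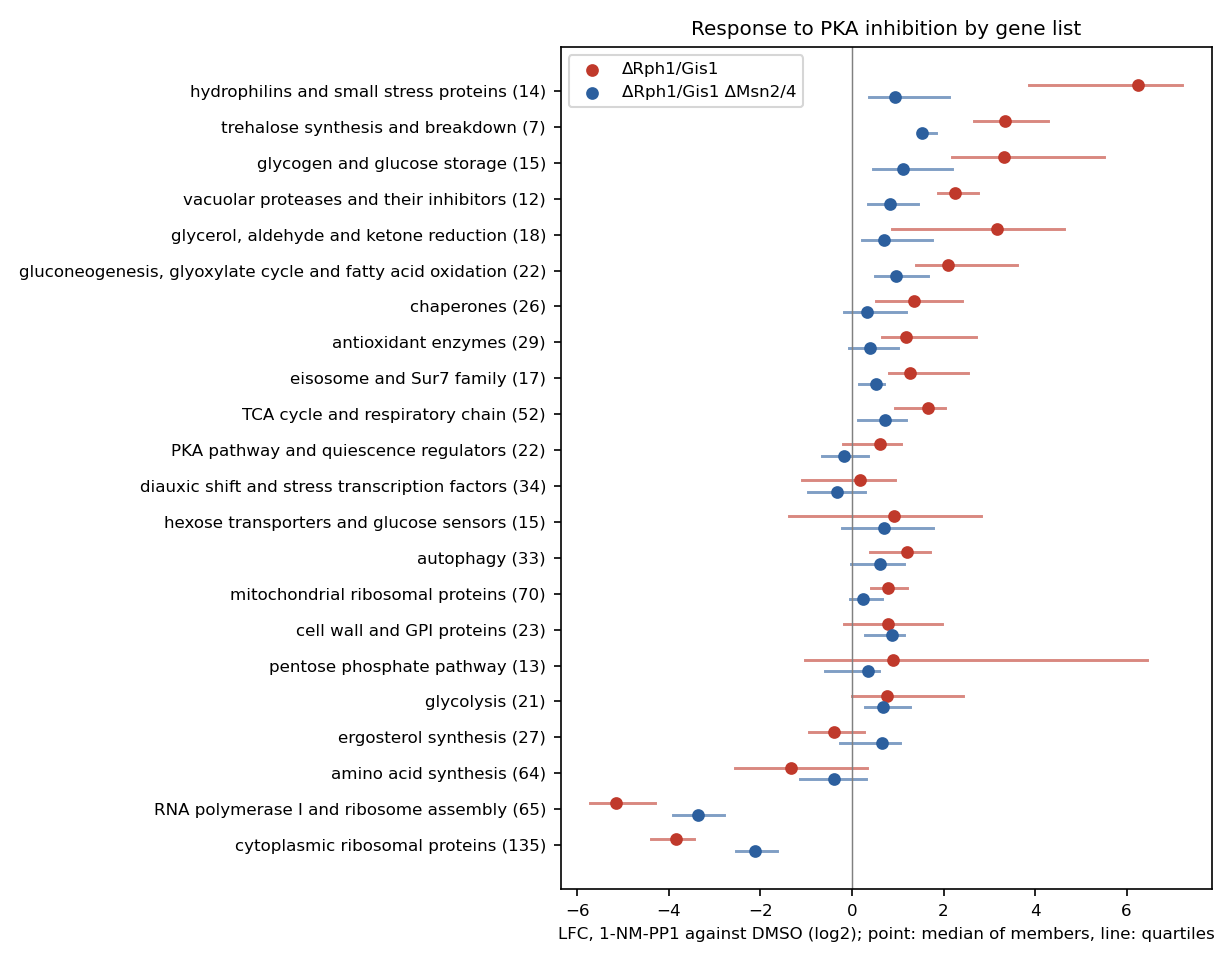
LFC of 1-NM-PP1 against DMSO (log2) for the members of each gene list in ΔRph1/Gis1 (red) and ΔRph1/Gis1 ΔMsn2/4 (blue), with points for medians and lines for quartiles. The small stress proteins go from a median of 6.25 to 0.95, and the cytoplasmic ribosomal proteins from -3.85 to -2.11.

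Whether the presence of Rph1/Gis1 alters what Msn2/4 loss does was asked with the inhibited cultures that kept both. There, Msn2/4 loss lowered 455 genes (7.87%) and raised 536 (9.27%). Fitted on those 8 cultures alone the counts were 327 and 318, and with a replicate block 202 and 165, so the overlaps that follow hold for the fit over all cultures. These 8 cultures share no sample with the main comparison. Their culture 3 without Msn2/4 held 188289 counts on genes, the lowest of all libraries used, and with it left out the counts were 410 and 507. In the replicate block, the culture numbered 2017 with Msn2/4 and culture 4 without Msn2/4 had no partner. Of the 467 genes lower without Rph1/Gis1, 348 were also lower with it, which is 74.5% of the first list and 76.5% of the second, and 391 were higher in both, 77.7% and 72.9%. No gene was called in opposite directions. All 467 lower genes had a negative LFC with Rph1/Gis1 intact, and 502 of the 503 higher genes a positive one. The LFCs of the 5779 genes had a Pearson r of 0.84 and a Spearman rho of 0.81 across genes, which are not independent replicates.

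The test of the difference called 0 genes lower and 0 higher (0% and 0%) with edgeR, and DESeq2 also called 0 and 0. At an unadjusted p under 0.05 there were 125 genes, 2.16% of those tested, and the smallest adjusted p was 0.210. This does not show that the effects were equal. For genes called lower, the approximate 95% half-width of the difference, from its SE, had a median of 1.00 on the log2 scale, before any adjustment. Differences larger than this were not called either. The smallest adjusted p belonged to *PAI3*, which fell by 3.89 without Rph1/Gis1 and by 5.53 with it, and to *DPC7*, which fell by 2.84 and 5.12. Next, at an adjusted p of 0.241, *HSP12* fell by 9.71 and 4.90, *SIP18* by 6.14 and 8.16 and *GPG1* by 3.08 and 1.23. Inhibited cells without Msn2/4 held 860 ± 209 CPM of *HSP12* (SD, n = 4) with Rph1/Gis1 and 29.7 ± 16.3 CPM (SD, n = 4) without.

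**Figure D5:**
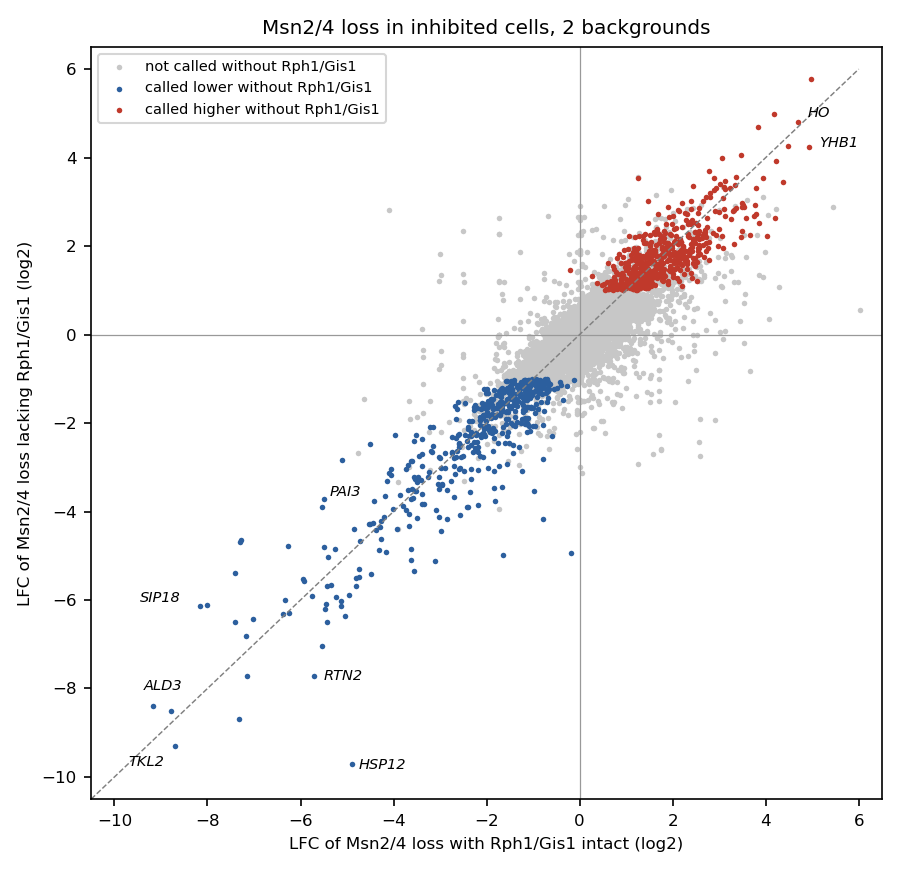
LFC of Msn2/4 loss in inhibited cells (log2) with Rph1/Gis1 intact on the x axis and without on the y axis, 1 point a gene, blue and red where called lower and higher without Rph1/Gis1. Points follow the dashed line of equal LFC, with *HSP12* at -4.90 and -9.71 the farthest from it of the 15 lowest and 10 highest genes.

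Last, the compound was also given to strains with wild-type PKA, which it does not block, with 3 cultures a group. There Msn2/4 loss without Rph1/Gis1 lowered 8 genes (0.138%) and raised 0 (0%), with 331 genes at an unadjusted p under 0.05 and 11 lower and 1 higher by DESeq2. The 8 were *EGO4* (LFC -3.22), *RTC3* (LFC -3.07), *PIC2* and *HSP26* (both -2.74), *YNR014W* (LFC -2.64), *STF2* (LFC -2.22), *HSP42* (LFC -2.18) and *CIP1* (LFC -1.78). All 8 were also lower in inhibited PKA-AS cells. Without culture 1 of the ΔRph1/Gis1 ΔMsn2/4 group the count was 2, and without culture 3 of either group it was 4.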

How the data were processed

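3′ mRNA sequencing libraries (QuantSeq FWD) of *S. cerevisiae* were used, and 35 libraries of *K. lactis* were not. The authors aligned the reads and deposited raw counts per gene for each library. The submitters' processing notes name HTSeq and the R64 genome, and tool versions are not given in the sources used here. Of 6600 gene entries, 5917 matched RefSeq R64. Entries for reads on no gene or on several genes were left out of library sizes, and genes took 82.3% to 85.1% of the reads in the 9 libraries compared. Repeat libraries of 1 culture were summed, 1 library marked as dropped by the authors was left out, and 59 libraries gave 56 cultures.

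Counts were fitted with edgeR 4.0.16 (limma 3.58.1, R 4.3.3) as 1 factor of 16 groups over the 56 cultures, with TMM normalization, genes with at least 2 counts in 3 cultures or more, and the quasi-likelihood test. P-values were adjusted by Benjamini-Hochberg over 5779 genes, and adjusted p-values in the text come from this test. The exception is that of *RPS26B* with the block, from the same kind of test on 16 cultures, adjusted over 5643 genes. Calls required an adjusted p under 0.01 and an absolute LFC above 1. Each SE from edgeR is the absolute LFC divided by the square root of the F statistic of its test. It is approximate, and can be far too large where the LFC is near 0. The differences between drug and DMSO and between strains with and without Rph1/Gis1 were tested as interaction contrasts. The sources do not say that replicates grew from separate starter cultures, so p-values measure the spread between these cultures. The scripts were tested on simulated counts.

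The genes named were the 15 lowest and 10 highest by LFC among called genes with a mean of at least 10 counts and no overlap between groups, without dubious open reading frames, up to 6 called members of each list by the size of their LFC, and the 4 deleted genes. A few more are marked as chosen after their values were seen, or are given as list members that were not called. The members and gene lists were chosen with earlier results of these data known. Ohnolog names came from the study's own list. STRE and PDS letters were searched on both strands of the 700 bases before each start codon. A PDS match and an STRE match share the letters AGGG but never count for each other. Alternatives were RLE and upper-quartile normalization, DESeq2 1.42.0, other filters and a test against a change of 1. Further ones were fits of the compared cultures alone, a replicate block, the first library only of inhibited ΔRph1/Gis1 culture 2, and each culture left out. Tables and figures used Python 3.11.15 with numpy 2.4.6, scipy 1.17.1, pandas 2.3.3 and matplotlib 3.10.9. Columns of the authors' own comparisons were not used. The values of 1 list member are not reported here.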

Additional observations from a re-analysis of the deposited data

Results flagged for a closer look

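Within groups of 4 cultures, 111 gene and group combinations were searched for a culture far from the other 3, a search in which chance marks about 1 in 20, and 6 were found. *RTC3* was at 9409.8 CPM in inhibited ΔRph1/Gis1 culture 3, with the next culture at 6689 CPM. *BCY1* was at 789 CPM in culture 4 of that group, next to 687 CPM, and *HTB2* at 7.64 CPM in the same culture, below 11.6 CPM. In inhibited ΔRph1/Gis1 ΔMsn2/4 cells, culture 1 had 1184 CPM of *YHB1* (next 969 CPM) and 70.4 CPM of *HSP26* (next 34.8 CPM), and culture 3 had 16.4 CPM of *SIP18* (next 15.1 CPM). None of these 6 genes lost its call in the main comparison when any single culture was left out.

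The effect of Msn2/4 loss differed between 1-NM-PP1 and DMSO, by a test of the difference, for 194 genes on the lower and 246 on the higher side.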

How the results depend on the processing

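For Msn2/4 loss in inhibited ΔRph1/Gis1 cells the counts stayed within 1.5 times of 467 lower and 503 higher genes in all alternatives but one, the test against a change of 1 (edgeR's glmTreat), which called 189 and 130. RLE gave 505 and 456, upper-quartile scaling 447 and 524, DESeq2 522 and 504, and single cultures left out 398 to 456 and 413 to 484. The 8 cultures alone gave 600 and 673, and with a replicate block 565 and 659. Deviations of same-numbered cultures 1 to 4 of the strains had r of 0.63, -0.58, -0.03 and 0.53, with 2 of 4 correlating best with their own number. Cultures 1 and 4 thus deviated together and cultures 2 and 3 did not, so these values do not settle whether numbers pair the samples. Called in every alternative except glmTreat were 325 and 355 genes. In DMSO, DESeq2 called 4 lower, the replicate block 6 lower and 1 higher, and single cultures left out 1 to 2 lower. For the difference between drug and DMSO, the divided culture as replicate block gave 357 and 616, the 16 cultures without it 255 and 420, and cultures left out 168 to 191 and 185 to 247. With Rph1/Gis1 intact, the compared cultures alone called 202 and 165 with a replicate block and 327 and 318 without it, and cultures left out gave 390 to 453 and 428 to 533. For the response to 1-NM-PP1 without all 4 factors, the divided culture as replicate block raised the count of higher genes from 304 to 573, and 381 were called on the same cultures without it. These response fits were chosen after seeing the data, as were the fits without a block on the compared cultures. With wild-type PKA, cultures left out gave 2 to 8 lower, and DESeq2 called 1 higher. The cause of these shifts was not tested. Of 2176 values of 128 single genes under alternatives, 2112 kept their call, 60 lost it (33 of them under glmTreat), 4 gained it and 0 turned direction. *TPS3*, *SSA3*, *CAT2*, *ATG3*, *ATG8*, *CAT8* and *RPS9A* lost the call when some single culture was left out. The median LFC of glycolysis genes changed sign between TMM (0.03) and RLE (-0.03). Low counts limit *TKL2*, *YNL194C* and *MSN2*, among others. In inhibited cultures without Msn2/4, *SPG4* had 0 to 4 counts and *COX26* 0 to 6. In inhibited ΔRph1/Gis1 cultures, *RPA43* had 1 to 4 counts and *RPS26B* 3 to 13.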
